A study of Mus musculus with 13 samples.

Results

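The 10 genes described here act in the germline defence against transposable elements: Piwil2, Mov10l1, Asz1, Tdrkh, Tdrd1, Tdrd9, Ddx4, Mael, Stk31 and Tex19.1. They were chosen by name, like the gene lists below with earlier results of these data known. All 10 were found among the 26797 genes listed for each of the 6 replicate libraries. By the same Ensembl identifiers they were found among the 49671 genes of a joint count table of 4 further libraries. RNA-seq had been carried out on mouse embryonic stem (ES) cells with and without functional Dnmt1, a DNA methyltransferase. It also covered cells in which O-GlcNAc was removed from proteins at one transposon family. The WT replicates (n = 3) were untreated cells of AinV15, an ES line that accepts an exchangeable, doxycycline-inducible transgene. The Dnmt1-/- replicates (n = 3) were untreated cells of the D1-null strain (C allele), which lack the maintenance DNA methyltransferase, so that genotype and cell line cannot be told apart. The dCas9-OGA cells (1 library) were AinV15 cells with wild-type Dnmt1 that expressed an O-GlcNAc hydrolase fused to catalytically dead Cas9, with 4 sgRNAs against intracisternal A particle (IAP) elements, and the dCas9-OGA-D242A cells (1 library) carried the same construct with an inactive hydrolase. Both were induced with doxycycline, and the WT and Dnmt1-/- cells were untreated. The joint table also held 1 WT and 1 Dnmt1-/- library, which the labels link to none of the replicates. No label says that the replicates were separate cultures, so p-values measure the spread between these samples, which may be technical.

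PIWI proteins bind small RNAs called piRNAs and use them to find transposon transcripts, which they cut, and in fetal male germ cells to direct DNA methylation to transposon promoters. The precursors are processed in germ granules next to mitochondria, where Tudor-domain proteins and RNA helicases gather around the PIWI proteins. Many genes of this machinery have CpG-rich promoters that are methylated in most somatic cells, and loss of the central ones arrests spermatogenesis and leaves males sterile.

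The replicate libraries held between 26846275 and 37112247 reads on genes, recovered from the deposited values, and the 4 single libraries held between 18693531 and 25097983 counts on genes. Dnmt1 itself was lower in the Dnmt1-/- cells, at a normalized signal of 75.5 ± 2.02 against 336 ± 24.1 in WT (SD, n = 3), and at 61.9 against 460 cpm (counts per 1e6 counts on genes after TMM scaling of the library total) in the single libraries. Of the ES cell markers, 7 were measured and their summed signal was 5353 to 5501 in WT and 5161 to 5558 in Dnmt1-/- cells. Of these 1 was higher, 3 were lower and 3 were not called in Dnmt1-/- cells, where 35.8% of all genes tested were higher and 35.4% lower. All 7 fibroblast markers (collagens, Thy1, Pdgfrb, Lum and Dcn) were lower in Dnmt1-/- cells, with sums of 1065 to 1532 in WT and 259 to 288 in Dnmt1-/-. Primordial germ cell markers summed to 180 to 189 in WT and 226 to 233 in Dnmt1-/- cells, and 2-cell-like markers to 395 to 422 and 163 to 187. Of 5 primitive endoderm markers 4 were higher in Dnmt1-/- cells, with sums of 96.3 to 102 and 120 to 128. Of 4 trophoblast markers 3 were tested, of which 2 were higher and 1 lower. All 4 summed to 13.7 to 16.8 in WT and 16.4 to 17.6 in Dnmt1-/- cells. Of the 6 spermatocyte or spermatid markers listed, Prm1, Prm2 and Acrv1 stayed below a signal of 1 in every replicate library, Sycp1 was higher and Zpbp lower in Dnmt1-/- cells, and Stra8 did not pass the test. The part of these other cell types in the results below was not tested. In bulk RNA, fewer cells of a type and less RNA per cell cannot be told apart.

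RefSeq promoter sequences (GRCm38.p6, 250 bases before to 50 bases after a transcription start) were matched for 9 of the 10 genes, in 12 windows. The ratio of observed to expected CpG, counted in the window of the most upstream start, was between 0.430 in Tdrd9 and 0.978 in Ddx4, with a median of 0.780, against a median of 0.384 over all 32851 windows. The E-box CACGTG, which reads the same on both strands and can be bound by MAX with its partners such as MGA, was found in 6 of the 9 genes (Mael, Tdrd1, Mov10l1, Ddx4, Stk31 and Tdrd9) and in 7.15% of all windows. The letters GCGGGA or, on the other strand, TCCCGC, which occur in sites of E2F6, a repressor of germline genes, were found in 3 of the 9 genes (Mael, Tex19.1 and Ddx4) and in 19.98% of all windows. Matches of one motif did not overlap matches of the other in these windows.

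The stretches upstream of the start that lie outside annotated exons are shown for the genes on which the results below turn, with each CpG in capitals: Asz1 and Tex19.1 had the largest differences, Mov10l1 and Mael carry an E-box far upstream, Stk31 had the largest ratio in the single libraries among the genes with at least 100 counts summed, Tdrd9 had the fewest CpG sites, and Tdrd1 is the gene that was not raised. An E-box therefore reads caCGtg in them. Asz1 (chr6:18109062-18109311, minus strand), Tex19.1 (chr11:121145893-121146142, plus strand), Mov10l1 (chr15:88982744-88982908, plus strand), Mael (chr1:166238748-166238994, minus strand), Stk31 (chr6:49395289-49395538, plus strand), Tdrd9 (chr12:111971309-111971558, plus strand) and Tdrd1 (chr19:56825959-56826208, plus strand) are given 5′ to 3′ on the strand of the gene.
Asz1: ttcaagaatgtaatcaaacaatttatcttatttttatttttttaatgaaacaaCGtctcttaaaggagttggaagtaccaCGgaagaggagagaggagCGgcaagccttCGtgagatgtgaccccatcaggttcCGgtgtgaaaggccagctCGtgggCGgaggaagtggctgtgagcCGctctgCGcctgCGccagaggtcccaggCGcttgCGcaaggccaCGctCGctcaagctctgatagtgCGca
Tex19.1: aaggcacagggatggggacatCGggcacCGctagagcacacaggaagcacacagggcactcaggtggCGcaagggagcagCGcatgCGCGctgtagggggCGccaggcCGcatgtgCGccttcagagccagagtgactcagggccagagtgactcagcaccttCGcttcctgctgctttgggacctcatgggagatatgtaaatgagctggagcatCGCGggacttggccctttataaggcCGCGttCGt
Mov10l1: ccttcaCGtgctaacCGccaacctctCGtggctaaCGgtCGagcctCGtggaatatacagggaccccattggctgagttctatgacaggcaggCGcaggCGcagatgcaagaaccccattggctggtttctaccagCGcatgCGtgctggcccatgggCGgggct
Mael: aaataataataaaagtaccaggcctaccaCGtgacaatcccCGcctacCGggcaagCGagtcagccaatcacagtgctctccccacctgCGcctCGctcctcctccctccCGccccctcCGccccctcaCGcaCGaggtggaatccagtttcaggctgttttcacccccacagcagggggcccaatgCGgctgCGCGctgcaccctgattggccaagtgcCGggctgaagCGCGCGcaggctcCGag
Stk31: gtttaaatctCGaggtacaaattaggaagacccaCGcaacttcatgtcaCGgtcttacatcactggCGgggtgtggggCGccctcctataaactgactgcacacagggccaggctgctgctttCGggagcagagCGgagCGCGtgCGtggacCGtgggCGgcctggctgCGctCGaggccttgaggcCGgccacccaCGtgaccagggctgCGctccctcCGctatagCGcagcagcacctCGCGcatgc
Tdrd9: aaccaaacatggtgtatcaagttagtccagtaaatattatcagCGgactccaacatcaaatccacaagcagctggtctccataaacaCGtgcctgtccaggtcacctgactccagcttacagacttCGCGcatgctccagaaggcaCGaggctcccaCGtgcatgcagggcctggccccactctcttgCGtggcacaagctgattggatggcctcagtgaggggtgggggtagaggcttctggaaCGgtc
Tdrd1: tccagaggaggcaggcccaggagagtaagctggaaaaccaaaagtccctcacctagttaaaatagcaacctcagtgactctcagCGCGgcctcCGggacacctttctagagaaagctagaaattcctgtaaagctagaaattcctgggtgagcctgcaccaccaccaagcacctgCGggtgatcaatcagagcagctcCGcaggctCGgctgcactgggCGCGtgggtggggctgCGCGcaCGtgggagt

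**Figure D1:**
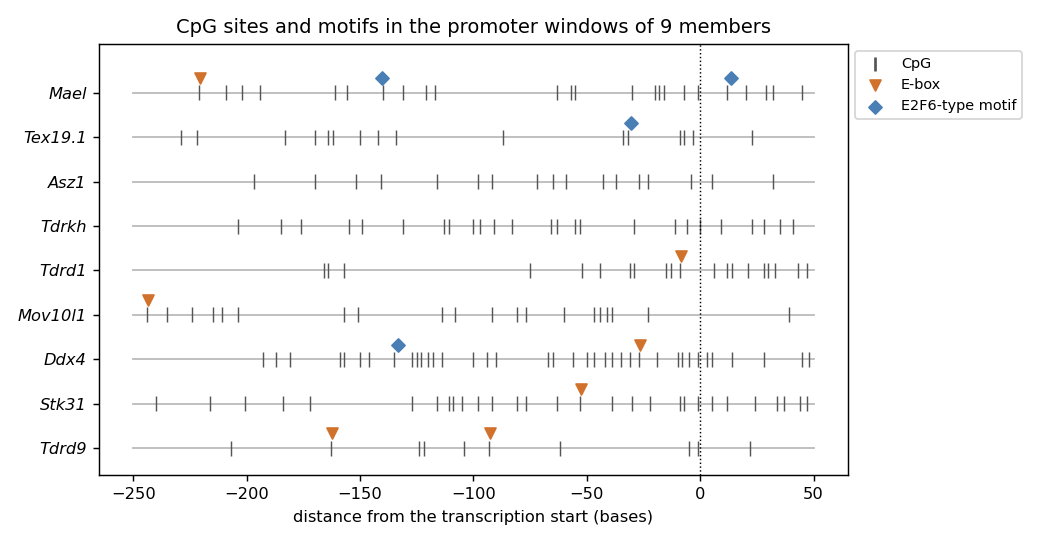
Positions of CpG sites (ticks), E-boxes (triangles) and E2F6-type motifs (diamonds) along the RefSeq promoter windows of 9 genes, with the distance from the most upstream transcription start on the horizontal axis in bases. CpG sites number from 10 in Tdrd9 to 38 in Ddx4, and E-boxes occur at different distances, from 11 bases before the start in Tdrd1 to 246 bases before it in Mov10l1.

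In the comparison of Dnmt1-/- with WT replicates, 9 of the 10 genes were higher in Dnmt1-/- cells and 1, Tdrd1, was lower, where 35.8% of the 17297 genes tested were higher and 35.4% were lower (limma on log2(signal + 0.5), adjusted p under 0.05). At least 2-fold higher were 7 of the 10, against 3.67% of all genes tested, and none was at least 2-fold lower, against 9.41%. Since the genes were chosen with earlier results of these data known, these counts are a description and not an independent test. The median log2 fold change of the 10 genes was 1.17, and that of all genes tested was 0.01. The values of the 2 groups did not overlap for any of the 10 genes, 9 higher and 1 lower, where this held for 37.1% of all genes upwards and 36.2% downwards. The largest differences were those of Asz1 and Tex19.1 and the smallest those of Stk31, Ddx4 and Tdrd1.

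**Figure D2:**
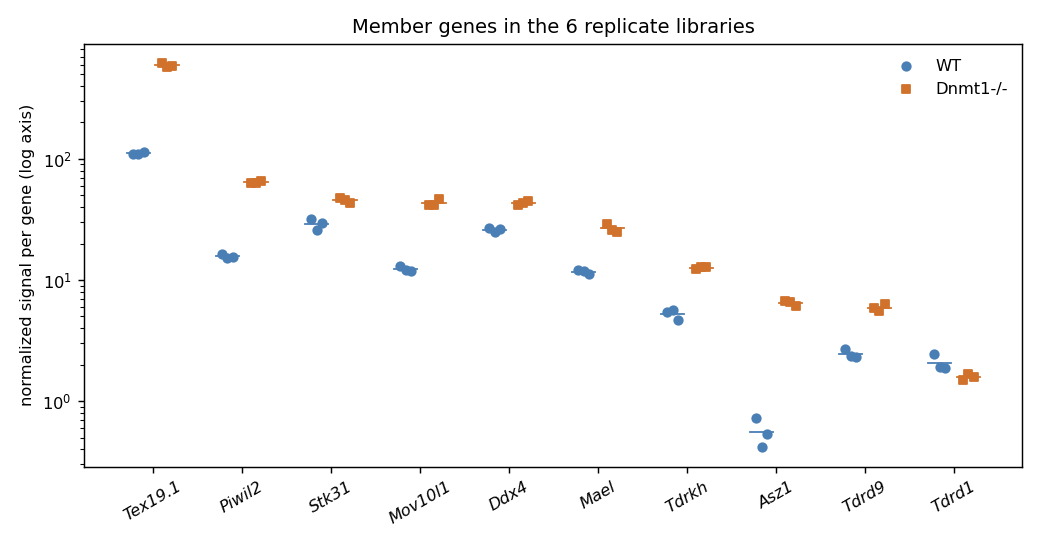
Normalized signal of each gene (log axis) in the 3 WT libraries (circles) and the 3 Dnmt1-/- libraries (squares), with bars at the group means. Dnmt1-/- libraries lie above all WT libraries for 9 genes and below them for Tdrd1, and Asz1 shows the widest gap, from 0.558 to 6.48.

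Piwil2 (MILI) is a PIWI protein of male germ cells, present from fetal life on, where it cuts transposon RNA and amplifies piRNAs. Its gene lies at chr14:70372477-70429383 (GRCm38). Its signal was 16.3, 15.2 and 15.5 in the WT libraries and 63.4, 62.8 and 65.9 in the Dnmt1-/- libraries. The Dnmt1-/- values were close together and well above those of WT, a log2 fold change of 2.00 (SE 0.06, limma adjusted p = 3.89e-19). Mov10l1 encodes the RNA helicase that binds piRNA precursors and hands them to processing. It gave 12.9, 12.2 and 11.8 in WT and 41.9, 41.6 and 46.6 in Dnmt1-/- cells. The log2 fold change was 1.78 (SE 0.07, limma adjusted p = 5.27e-17), and only 0.613% of all genes tested had a larger one.

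Asz1 (GASZ) and Tdrkh (TDRD2) sit on the outer mitochondrial membrane, Asz1 as a scaffold for the processing complex and Tdrkh as the partner of the trimming of piRNA 3′ ends. Asz1 gave 0.720, 0.416 and 0.539 in WT, which rests on 22, 16 and 15 reads, and 6.69, 6.61 and 6.15 in Dnmt1-/- cells, from 192, 201 and 167 reads. It was nearly silent in each WT library and clearly present in each Dnmt1-/- library. The log2 fold change of 2.73 (SE 0.13, limma adjusted p = 4.40e-15) includes the pseudocount of 0.5, which lowers it for a gene of this level, and the ratio of the means without it was 11.6. Tdrkh gave 5.44, 5.61 and 4.71 in WT and 12.4, 12.8 and 12.8 in Dnmt1-/- cells, so that the log2 fold change was 1.20 (SE 0.09, limma adjusted p = 3.51e-11). Tdrkh shares exonic bases with Oaz3, a spermatid gene on the opposite strand, and the sources do not state whether reads were counted by strand. Oaz3 had a signal of 0.0519 to 0.131 in the replicate libraries, far below that of Tdrkh. Since it is not stated how reads on the shared bases were assigned, this value does not settle the part of Oaz3 in the Tdrkh signal.

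Tdrd1, Tdrd9 and Stk31 are Tudor-domain proteins. Tdrd1 binds the methylated arginines of Piwil2. It was the gene of lowest signal in Dnmt1-/- cells, with 2.46, 1.92 and 1.87 in WT and 1.50, 1.68 and 1.58 in Dnmt1-/- cells, from 43 to 75 reads per library. Its log2 fold change was −0.30 (SE 0.13, limma adjusted p = 0.0470). This call was lost when WT replicate 1 (adjusted p = 0.236), Dnmt1-/- replicate 1 (0.111), Dnmt1-/- replicate 2 (0.0554) or Dnmt1-/- replicate 3 (0.0827) was left out, and under DESeq2 (0.137). Tdrd9, a helicase that works with the PIWI protein of the nucleus, gave 2.69, 2.36 and 2.30 in WT and 5.85, 5.56 and 6.37 in Dnmt1-/- cells, so that the log2 fold change was 1.12 (SE 0.11, limma adjusted p = 4.13e-09). Stk31, a Tudor-domain protein with a kinase-like domain that is found with PIWI proteins in testis, gave 31.6, 25.8 and 29.4 in WT and 47.2, 45.4 and 43.6 in Dnmt1-/- cells. All 3 Dnmt1-/- values of Stk31 were above the highest WT value, at a log2 fold change of 0.64 (SE 0.07, limma adjusted p = 6.46e-09), the smallest rise of the 10 genes.

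Ddx4 (the mouse Vasa homologue) is the DEAD-box helicase by which germ cells are usually recognized. It was already present in WT cells at 26.8, 24.7 and 26.4 and reached 41.8, 43.5 and 44.7 in Dnmt1-/- cells, so that the log2 fold change was 0.73 (SE 0.06, limma adjusted p = 9.30e-11). Mael (Maelstrom) is a germ granule protein needed to keep LINE-1 elements silent in spermatocytes. It gave 12.1, 11.8 and 11.2 in WT and 28.9, 25.8 and 25.1 in Dnmt1-/- cells, so that the log2 fold change was 1.15 (SE 0.07, limma adjusted p = 1.13e-12). Its values in Dnmt1-/- cells were all more than 2 times those of WT.

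Tex19.1 encodes a mammal-specific protein that restrains retrotransposons in germ cells and placenta and is not itself a core piRNA factor. It gave 110, 110 and 113 in WT and 617, 578 and 582 in Dnmt1-/- cells, so that the log2 fold change was 2.40 (SE 0.05, limma adjusted p = 2.30e-22). It was thus the most abundant of the 10 genes in both groups. Tex19.1 lies on chromosome 11 (chr11:121146143-121148319), where the median log2 fold change of 1346 tested genes was 0.35, and relative to that median its log2 fold change was 2.06. The medians of the chromosomes that carry the other 9 genes lay between −0.07 and 0.03. Tex19.1 shared 50 of its 1696 stretches of 50 bases (2.95%) with its neighbour Tex19.2, so that part of the reads of either could belong to the other.

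Levels were compared between genes per kilobase of exon. In WT the order was Tex19.1 (59.5 per kilobase), Stk31 (8.94), Ddx4 (8.61), Mael (6.77), Piwil2 (2.96), Mov10l1 (2.94), Tdrkh (0.855), Tdrd9 (0.452), Tdrd1 (0.382) and Asz1 (0.197). The ranges over libraries overlapped between Stk31 and Ddx4, between Piwil2 and Mov10l1 and between Tdrd9 and Tdrd1. The median over 17237 genes was 3.70 per kilobase in WT, so that 4 of the 10 genes were above it and 6 below. In Dnmt1-/- cells, where that median was 3.58, 6 were above it: Tex19.1 (316 per kilobase), Mael (15.4), Ddx4 (14.4), Stk31 (14.0), Piwil2 (12.1) and Mov10l1 (10.4). The ranges of Mael and Ddx4 overlapped, as did those of Ddx4 and Stk31. Asz1 passed from the last place in WT to the seventh in Dnmt1-/- cells (2.29 per kilobase), ahead of Tdrkh (2.06), Tdrd9 (1.09) and Tdrd1 (0.291).

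Of 38 other genes of the piRNA pathway and its germ granules, 33 could be tested, and 17 were higher, 8 lower and 8 not called in Dnmt1-/- cells, with a median log2 fold change of 0.23. Among all genes 35.8% were higher and 35.4% lower. At least 2-fold higher were 5 of the 33, against 3.67% of all genes, and none was 2-fold lower on the log2(signal + 0.5) scale, against 9.41%. Without the pseudocount Spocd1, a factor of piRNA-directed methylation, had a ratio of means of 0.286, from 12 to 21 reads in WT and 1 to 6 in Dnmt1-/- libraries (log2 fold change −0.63, limma adjusted p = 0.00110). The 5 genes were Tex19.2, the copy of Tex19.1 (4.55 ± 0.386 in WT, 37.0 ± 0.759 in Dnmt1-/-, log2 fold change 2.90), Tex15, which acts in piRNA-directed methylation (9.61 ± 1.12 and 38.6 ± 1.99, 1.96), Dnmt3l, the cofactor of de novo methylation (247 ± 9.77 and 755 ± 16.4, 1.61), Fkbp6, a co-chaperone of piRNA loading (24.5 ± 1.99 and 70.7 ± 1.65, 1.51), and Pld6, the mitochondrial nuclease that cuts piRNA precursors (3.88 ± 0.173 and 9.34 ± 0.688, 1.17), all mean ± SD with n = 3. The other PIWI genes did not pass the test: Piwil1 (MIWI) had 2.88 ± 0.199 in WT and 2.54 ± 0.486 in Dnmt1-/- (limma adjusted p = 0.263), and Piwil4 (MIWI2) had 1.76 ± 0.501 and 2.12 ± 0.330 (limma adjusted p = 0.175). Mov10, the paralogue of Mov10l1 that is expressed outside the germline and restricts LINE-1 elements, fell by 0.90 on the log2 scale (SE 0.05, limma adjusted p = 2.06e-13). Dnmt3c, which methylates young transposons in male germ cells and arose as a copy of Dnmt3b, rose from 1.77 ± 0.114 to 3.37 ± 0.311 (SD, n = 3), with a log2 fold change of 0.77, but reads shared with Dnmt3b (1.11) could not be told apart.

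**Figure D3:**
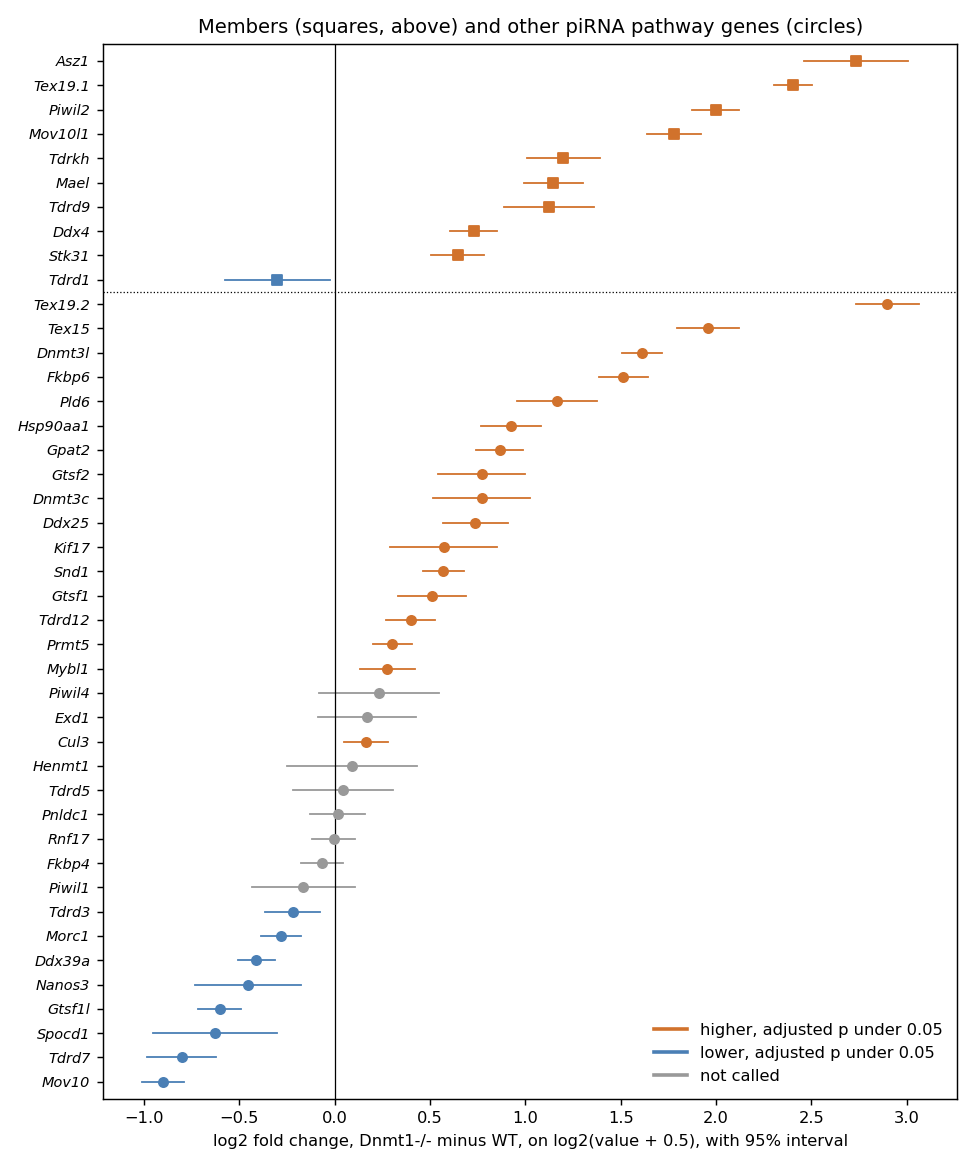
Log2 fold change of Dnmt1-/- against WT with 95% intervals from limma, for the 10 genes (squares, above the dotted line) and 33 other genes of the pathway (circles), coloured by call. The 10 genes run from −0.30 in Tdrd1 to 2.73 in Asz1 and the others from −0.90 in Mov10 to 2.90 in Tex19.2.

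Cells with the active hydrolase were compared with cells with the inactive form in 1 library each, without replicates, and are described without p-values. Hydrolase activity therefore cannot be told apart from other differences between the 2 transgenic cell populations. Intervals below cover counting error only (95%, exact). Of the 10 genes, 8 had at least 100 counts summed over dCas9-OGA and dCas9-OGA-D242A, and 2 of these, Stk31 and Piwil2, passed 2-fold upwards in dCas9-OGA, as did 4.88% of 12722 genes. None was 2-fold lower, where 7.22% of all genes were. The median log2 ratio of the 8 genes on log2(cpm + 0.5) was 0.62, against 0.03 for all genes. Markers of other states moved in the same comparison: of 4 primitive endoderm markers with enough counts 3 were at least 2-fold higher, and all 5 summed to 26.8 cpm with the active and 9.37 cpm with the inactive hydrolase, and 6 of 8 ES cell markers were above 0, with a median log2 ratio of 0.59. Primordial germ cell markers went the other way, with 2 of 5 above 0, 1 at least 2-fold lower and a median log2 ratio of −0.71. Of 5 fibroblast feeder markers 2 were at least 2-fold lower, and of 2 trophoblast markers 1 was. Their part in the values of the 10 genes was not tested.

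Stk31 had 10.7 cpm (265 counts) in dCas9-OGA and 4.23 cpm (105 counts) in dCas9-OGA-D242A, a fold of 2.53 (2.01 to 3.20). Piwil2 had 57.5 and 26.8 cpm, a fold of 2.15 (1.96 to 2.36), and Mov10l1 had 33.2 and 16.9 cpm, a fold of 1.97 (1.75 to 2.22). These 3 genes were the highest of the 10 in this comparison and lie on different chromosomes. Among coding genes within 5 Mb of each, the median log2 ratio was 0.02 for Stk31, 0.12 for Piwil2 and 0.04 for Mov10l1. Over their whole chromosomes the medians were 0.07, 0.18 and 0.03, against 0.04 for all coding genes. Relative to its chromosome, Stk31 had a log2 ratio of 1.18, Piwil2 0.91 and Mov10l1 0.93, so that Piwil2 fell below 2-fold and Stk31 did not. Mael had 25.6 and 15.2 cpm, a log2 ratio of 0.74, but the coding genes within 5 Mb of it had a median of 0.53 and those of all chromosome 1 a median of 0.40. Ddx4 had 17.6 and 12.2 cpm (0.50) and Tdrd1 had 4.55 and 3.14 cpm (0.47). Tdrkh, at 7.53 and 7.16 cpm, had an interval that spans no change, 0.852 to 1.30 fold. Tex19.1 went the other way, at 74.0 and 94.8 cpm, a log2 ratio of −0.36, and its chromosome 11 had a median of −0.46. For Asz1 the dCas9-OGA library held 0 counts and the dCas9-OGA-D242A library 3, and for Tdrd9 they held 20 and 18, so that no difference was detectable for these at this depth. A count of 0 allows up to 3 counts.

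**Figure D4:**
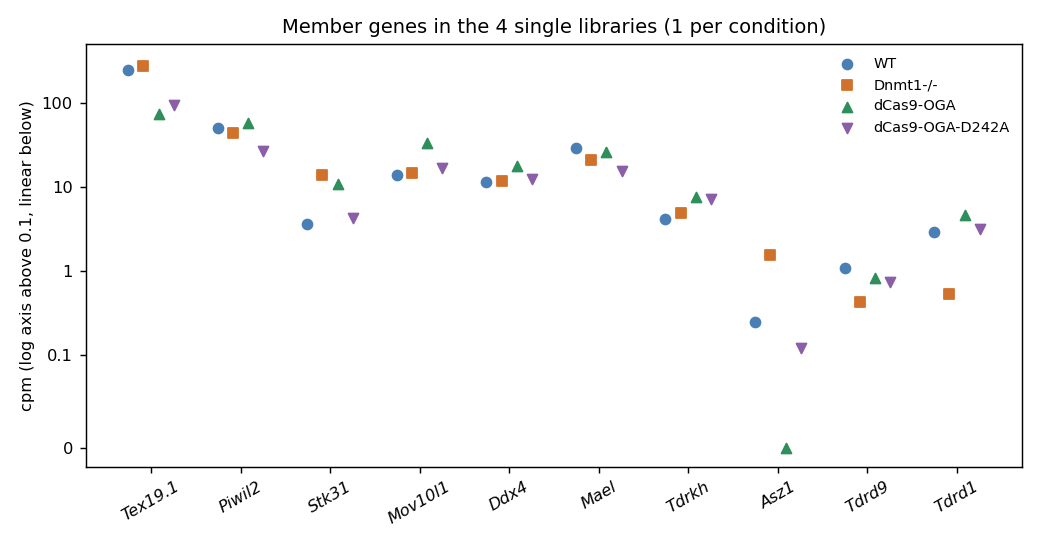
The cpm of each gene in the 4 single libraries (WT, Dnmt1-/-, dCas9-OGA and dCas9-OGA-D242A), on an axis that is logarithmic above 0.1 and linear below. Tex19.1 is highest in the WT and Dnmt1-/- libraries (244 and 275 cpm) and Asz1 is the lowest gene in WT, dCas9-OGA and dCas9-OGA-D242A.

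The dCas9-OGA-D242A cells could be set against WT only in the same single libraries. The labels tie that WT library to no sample, so its cell line, culture and batch are not given in the sources used here. Its aligner is uncertain, since the study's methods name HISAT2 for gene counts but the labels name TopHat2 for the dCas9 libraries. The construct, the sgRNAs and the doxycycline cannot be told apart from these factors or from each other. Of 8 genes with enough counts, none was at least 2-fold higher and 1 was at least 2-fold lower in dCas9-OGA-D242A than in WT, where 12.5% and 8.28% of 12933 genes were. The median log2 ratio of the 8 genes was 0.10, with 5 above 0 and 3 below. The gene 2-fold lower was Tex19.1, at 94.8 cpm against 244 cpm, a log2 ratio of −1.36. Mael (15.2 and 28.8 cpm) and Piwil2 (26.8 and 50.1 cpm) were also lower with the inactive construct, at log2 ratios of −0.90 and −0.89. The 5 genes above 0 were Tdrkh (7.16 and 4.07 cpm, 0.74), Mov10l1 (0.28), Stk31 (0.22), Tdrd1 (0.11) and Ddx4 (0.09). The comparisons of dCas9-OGA and of WT with dCas9-OGA-D242A share that library, and against WT the dCas9-OGA cells had a log2 ratio of 0.20 for Piwil2, −0.17 for Mael, 1.24 for Mov10l1, 1.46 for Stk31 and −1.71 for Tex19.1. In the WT library the 2-cell-like markers (Zscan4 genes and others) summed to 27.5 cpm, against 0.403 in dCas9-OGA, 1.37 in dCas9-OGA-D242A and 1.10 in Dnmt1-/-. Trophoblast markers summed to 51.1 cpm in WT against 7.61, 10.3 and 11.9 in the same order, and primitive endoderm markers to 33.7 against 26.8, 9.37 and 11.8. ES cell markers summed to 4920 cpm in WT and 3939 cpm with the inactive construct, where 7 of 8 were below WT at a median log2 ratio of −0.43. Primordial germ cell markers had a median of 0.45 in that comparison, with 4 of 6 above 0, and fibroblast feeder markers one of 0.16, with 4 of 5 above 0. Their part in these differences was not tested.

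The single Dnmt1-/- and WT libraries gave other values for these genes than the replicates. Of 7 genes with at least 100 counts summed, 1 was at least 2-fold higher in Dnmt1-/-, where 10.5% of 12593 genes were, and none was 2-fold lower, where 6.89% were. The higher gene was Stk31, at 13.8 cpm (262 counts) against 3.55 cpm (88 counts), a log2 ratio of 1.82, larger than its log2 fold change of 0.64 in the replicates. Tex19.1 (275 and 244 cpm), Tdrkh (4.84 and 4.07 cpm), Mov10l1 (14.4 and 13.8 cpm) and Ddx4 (11.7 and 11.5 cpm) had log2 ratios of 0.18, 0.22, 0.06 and 0.03. Mael and Piwil2 were lower in Dnmt1-/-, at −0.47 and −0.21. Among the genes with few counts, Asz1 had 29 counts in Dnmt1-/- and 6 in WT, a fold of 6.30 (2.57 to 18.6), while Tdrd1 had 10 and 71, a fold of 0.184 (0.0844 to 0.358), and Tdrd9 had 8 and 27, a fold of 0.386 (0.152 to 0.874). At least 2-fold lower in the single Dnmt1-/- library were also 4 of 5 fibroblast feeder, 3 of 4 primitive endoderm, 2 of 3 trophoblast and 3 of 3 2-cell-like markers, while of 7 primordial germ cell markers 2 were 2-fold higher and 2 were 2-fold lower. Their part in these values was not tested. The tables were normalized separately, so no test was made across them. In the WT libraries Tex19.1 stood at 244 cpm in the single one and at a signal of 110 to 113 in the replicates, and Piwil2 at 50.1 cpm and 15.2 to 16.3.

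**Figure D5:**
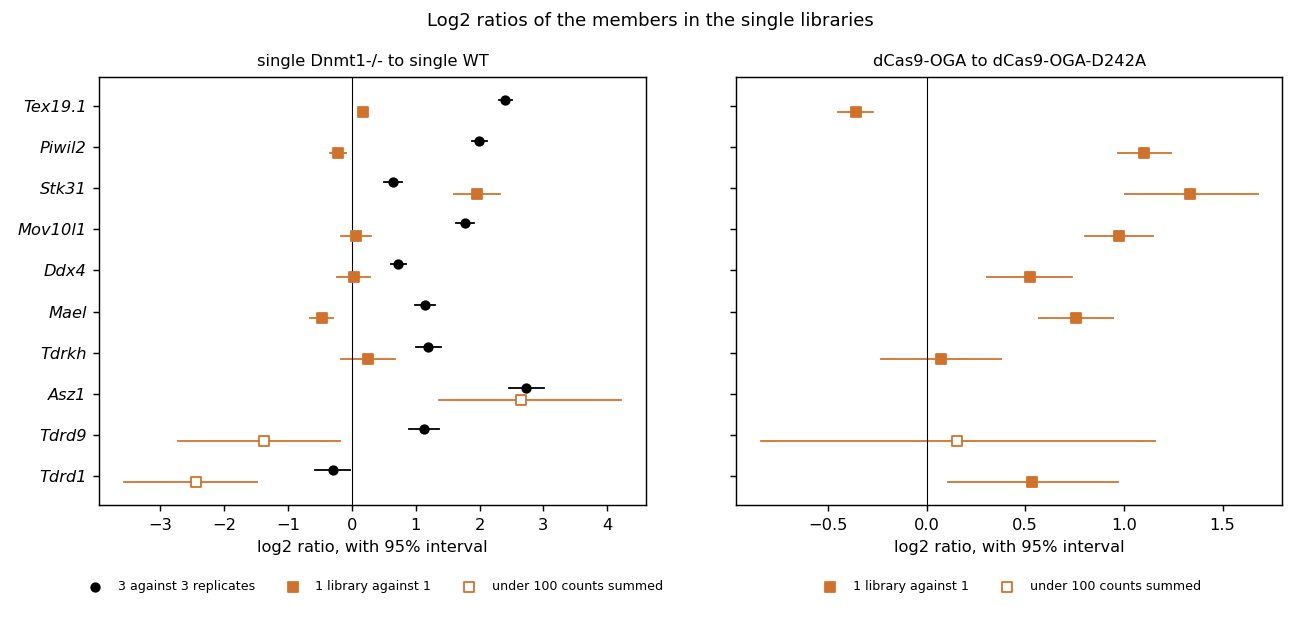
Log2 ratios with 95% intervals. Left, the single Dnmt1-/- library over the single WT library (squares, no pseudocount, counting error only, open where under 100 counts were summed) beside the log2 fold change of the replicates (circles, limma, on log2(signal + 0.5)). Right, dCas9-OGA over dCas9-OGA-D242A, without Asz1, which had 0 and 3 counts. The circles lie above 0 for 9 genes, whereas the squares on the left lie below 0 for Piwil2, Mael, Tdrd9 and Tdrd1.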

How the data were processed

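RNA-seq reads were mapped to mm10 (GRCm38) and counted on Ensembl v87 genes with featureCounts 1.5.0. Per the labels, HISAT2 2.1.0 was used for the replicates and TopHat2 2.0.11 for the dCas9 libraries. The authors deposited whole counts per gene for the 4 single libraries. For the 6 replicates they deposited a normalized signal, with each count divided by a library-size factor, whose sum per library was 959084 to 1036637 and which came out as whole reads for 100% of values (within 0.001). Column names and columns disagree in these files, so values were taken by position, from column 3. The labels and the study's methods name different library kits. O-GlcNAc ChIP-seq and repeat counts were not used here.

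With limma 3.58.1 (trend) the log2(value + 0.5) of each gene was tested, two-sided, with Benjamini-Hochberg adjustment at 0.05 over 17297 genes that passed edgeR's filterByExpr on recovered reads, in R 4.3.3. Fold changes on this scale understate those of low genes. On recovered reads edgeR 4.0.16 (quasi-likelihood) called 6026 genes higher and 6226 lower, and DESeq2 1.42.0 was a further alternative. Other alternatives were TMM scaling, pseudocounts, filters, the replicate block, the chromosome median and leaving out each library. Single libraries were compared as log2(cpm + 0.5), cpm being per TMM-scaled library total, without a test, for genes with at least 100 counts summed. Scripts were tested on simulated data. Replicates of a group were not duplicates (chi-square per degree of freedom 2.82 to 9.69). Gene models came from GENCODE vM21, which held 26679 of 26797 identifiers. The genes and lists were chosen with earlier results of these data known, and the 5 Mb neighbourhoods were added after the data were seen. Named genes were the 10 members, pathway genes and regulators called and at least 2-fold different, Piwil1, Piwil4, Dnmt3l, Mov10, Dnmt3c, Dnmt1 and Dazl. Other genes named were chosen after their values were seen. Intervals came from SciPy 1.17.1 and figures from matplotlib 3.10.9, in Python 3.11.15.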

Additional observations from a re-analysis of the deposited data

Results flagged for a closer look

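Mael and Piwil2 moved in opposite directions in the replicates and in the single libraries of the same 2 genotypes. In all 3 Dnmt1-/- replicates both genes lay above all WT replicates, with log2 fold changes of 1.15 and 2.00. In the single Dnmt1-/- library Mael had 20.7 cpm against 28.8 cpm in WT, a log2 ratio of −0.47 (without the pseudocount, 0.720-fold, counting interval 0.635 to 0.815). Piwil2 had 43.1 against 50.1 cpm, a log2 ratio of −0.21 (0.861-fold, 0.787 to 0.941). The difference between the 2 experiments was not tested, since the single libraries have no replicates and the tables were normalized separately. The coding genes within 5 Mb of Mael had a median log2 ratio of −0.12 in the single libraries and those within 5 Mb of Piwil2 one of −0.39.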

How the results depend on the processing

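The 9 higher genes kept their direction and their call under all 15 alternatives, for example with log2 fold changes of 2.27 to 3.55 for Asz1, 2.06 to 2.42 for Tex19.1 and 0.57 to 0.71 for Stk31. Tdrd1 kept its direction under all 15 but its call under only 5, with adjusted p of 0.0310 to 0.236, so that the count of lower members was 0 instead of 1 under DESeq2 (adjusted p = 0.137), a pseudocount of 0.1 (0.0583), no filter (0.120), a mean signal of at least 1 (0.0516) and relative to its chromosome (0.0622), and 0 to 1 when 1 library was left out. The cause was not tested. The replicate numbers did not pair the samples (correlations of 0.07, −0.02 and 0.07 between same-numbered libraries). With the replicate block 6344 genes were higher and 6212 lower, and members lower were 0 (Tdrd1, adjusted p = 0.0579), members higher 9. Piwil4 was called without WT replicate 3 (log2 fold change 0.40, adjusted p = 0.0180). In dCas9-OGA against dCas9-OGA-D242A, members at least 2-fold higher were 0 instead of 2 with a pseudocount of 5 cpm, which shrinks ratios of low genes. In the single Dnmt1-/- against WT libraries, a minimum of 20 counts gave 2 higher (Stk31 and Asz1) and 1 lower (Tdrd1). Counts of other pathway genes and regulators stayed within 1.5 times under every alternative run. With 15 to 22 WT reads, the size of the Asz1 fold is the least certain.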

Other observations

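Factors known to hold germline genes silent in ES cells, or to remove that silencing, were also compared between the Dnmt1-/- and WT replicates. Of 27 tested, 15 were higher, 7 lower and 5 not called, with a median log2 fold change of 0.23, where 35.8% of all genes were higher and 35.4% lower. At least 2-fold different was 1 of the 27, higher, where 3.67% of all genes were 2-fold higher. This was Dnmt3b, a de novo methyltransferase, at 127 ± 5.26 in WT and 276 ± 11.3 in Dnmt1-/- (SD, n = 3, log2 fold change 1.11). E2f6 had 40.3 ± 1.23 and 39.0 ± 1.59 (limma adjusted p = 0.476), and Mga had 217 ± 22.4 and 217 ± 7.06 (limma adjusted p = 0.973). The E2F6-type letters occurred in 3 of the 9 promoters and in 19.98% of all windows, and binding of E2F6 was not tested. Mga had 244 cpm in the single Dnmt1-/- library, 280 and 238 cpm in dCas9-OGA and dCas9-OGA-D242A, and 38.3 cpm in the single WT library, which stood apart from the other 3. In the replicates its partner Max rose by 0.32 on the log2 scale and the complex member Pcgf6 by 0.35. The 7 lower genes were Prdm14 (−0.67), Hdac1 (−0.35), Tet2 (−0.35), Tet1 (−0.32), Atf7ip (−0.30), Hdac2 (−0.18) and Rybp (−0.16), of which Rybp, Hdac1 and Hdac2 are also counted to complexes with E2F6 or MGA.

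Other germline genes moved unevenly. Dazl, an RNA-binding protein of germ cells, stood at 23.5 in WT and rose to 323 in Dnmt1-/- (log2 fold change 3.75), above that of each of the 10 genes. Of 7 primordial germ cell markers, 4 were higher, Dppa3 most (1.51 to 16.7, log2 fold change 3.10), and 2, Prdm1 and Nanos3, were lower (−0.84 and −0.45), where 35.8% of all genes were higher and 35.4% lower. The synaptonemal complex gene Sycp1 rose from 6.13 to 39.8, while the meiotic entry gene Stra8 did not pass the test at 94.7 and 90.0, and the sperm gene Zpbp fell from 2.42 to 1.29 (log2 fold change −0.71). In dCas9-OGA against dCas9-OGA-D242A, of 30 other pathway genes 4 passed 2-fold upwards and 6 downwards, where 4.88% and 7.22% of all genes did. The higher ones were Piwil1 (4.59 and 1.29 cpm), Tdrd3 (44.0 and 12.7 cpm), Rnf17 (57.6 and 18.2 cpm) and Btbd18 (8.50 and 1.65 cpm). Tdrd3 and Rnf17 lie on chromosome 14, as does Piwil2, and its median log2 ratio was 0.18. The lower ones were Tdrd12 (7.33 and 34.0 cpm), Tdrd5 (1.65 and 6.48 cpm), Gtsf1 (1.29 and 3.74 cpm), Fkbp6 (2.42 and 8.01 cpm), Pld6 (4.96 and 14.8 cpm) and Tex19.2 (1.29 and 3.62 cpm), of which Pld6 and Tex19.2 lie on chromosome 11, whose median log2 ratio was −0.46.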
